A study of Mus musculus with 24 samples.

Results

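Matrix metalloproteinases (MMPs), their tissue inhibitors (TIMPs), ADAMTS proteases and the ADAMTS-like (ADAMTSL) proteins were followed in mouse embryonic fibroblasts (MEFs), connective tissue cells grown from mouse embryos. Members were all genes of the deposited table whose names are Mmp, Timp, Adamts or Adamtsl followed by a number, a rule that uses names and no measured value. There were 51 of them among 55487 genes, with 23 MMPs, 4 TIMPs, 19 ADAMTS proteases and 5 ADAMTSL proteins. Enough reads for testing were found for 33 members, of which 13 are MMPs, 3 TIMPs, 13 ADAMTS proteases and 4 ADAMTSL proteins.

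MMPs are zinc enzymes that are made as inactive proenzymes and that cut collagens, gelatin, other matrix proteins and cell surface proteins. TIMPs bind the active site of these enzymes and block it, and TIMP2 also takes part in the activation of pro-MMP2 by the membrane-bound MMP14. ADAMTS proteases are secreted relatives that carry thrombospondin repeats. Some of them cut proteoglycans such as aggrecan and versican, others remove the N-terminal propeptides of fibrillar procollagens, and the ADAMTSL proteins share the ancillary domains but lack the protease.

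By their labels the cells were wild type (WT) or AMPK KO, and the latter are, in the study's methods, prkaa1 prkaa2 double-knockout MEFs that lack both catalytic subunits of AMP-activated protein kinase and came from the same provider as the WT cells. MK-8722, which activates AMPK directly, torin1, which blocks the MTOR kinase, or their vehicle DMSO was given to each genotype, which gave 6 groups of 4 libraries of poly(A) RNA. Neither age nor strain of the embryos is in the labels, and dose and time of treatment are likewise not given there. WT libraries were of passages 12 to 15 and AMPK KO libraries of passages 16 to 19, with 1 library of each passage in each group, so genotype, cell line and passage range cannot be told apart. The labels do not say whether the passages of a group were taken from 1 culture or from independent ones, and the p values then measure only the spread between these libraries.

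Library totals lay between 26900240 and 34192685 estimated counts. The fibroblast markers Col1a1 and Vim were abundant in both genotypes, but 7 of 8 fibroblast markers were lower in AMPK KO, and Col1a2 had a mean of 2500 CPM (counts scaled to a common library total) in WT against 28.4 CPM in AMPK KO under DMSO. The summed level of the 8 markers was 11200 to 15900 CPM in WT against 4800 to 5370 CPM in AMPK KO under DMSO. Markers of leukocytes and macrophages, which are rich in several MMPs, summed to at most 0.623 CPM in any library, and Ptprc, Adgre1, Aif1 and Cd163 had at most 3 counts in each. Chondrocyte and endothelial markers summed to at most 15.7 and 8.6 CPM, epithelial markers to at most 6.45 CPM and osteoblast markers to at most 74.8 CPM. In bulk RNA, fewer cells of a type cannot be told apart from less RNA per cell. The targeted genes differed between AMPK KO and WT by -0.19 on the log2 scale for Prkaa1, under the 1.2-fold minimum, and by -0.56 for Prkaa2. Reads from exons outside a deletion can persist, so these gene-level values do not check the labels, and AMPK KO is used here as the labels' name.

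Which members were read at all is best seen in TPM, transcript levels scaled to a common total and corrected for transcript length, which allow levels of different genes to be compared. In WT under DMSO the inhibitors Timp2 and Timp1 ranked first and second of the 51, at 357 ± 17.7 and 256 ± 31.7 TPM (SD, n = 4, as for all groups). Mmp14 followed at 167 ± 14.8 TPM, Mmp2 at 149 ± 20.9 TPM and Timp3 at 75.0 ± 12.7 TPM. The levels of Mmp14 and Mmp2 overlapped between libraries, with 147 to 182 TPM against 127 to 177 TPM, so their order is not resolved. In AMPK KO under DMSO the 3 TIMPs held the first 3 ranks, at 258 ± 14.1 TPM for Timp2, 206 ± 9.32 TPM for Timp1 and 88.6 ± 12.4 TPM for Timp3, and Mmp2 had rank 20 at 2.03 ± 1.16 TPM.

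Summed over each family, TPM of the MMPs was 362 ± 37.1 in WT and 79.3 ± 5.36 in AMPK KO under DMSO. The TIMPs summed to 688 ± 42.4 TPM in WT and 552 ± 23.2 TPM in AMPK KO. ADAMTS proteases came to 74.0 ± 16.2 TPM and 68.7 ± 3.63 TPM. RNA of the inhibitors thus exceeded that of all MMPs together in both genotypes, which says nothing of protein or activity.

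The secreted collagenases and stromelysins, classical MMPs of inflamed tissue, had almost no reads. Mmp13, Mmp12, Mmp1b, Mmp3, Mmp1a, Mmp10, Mmp8, Mmp27, Mmp20 and Mmp7 lie side by side on chromosome 9, between bases 7272514 and 7699585 of GRCm38. None of these 10 members exceeded 20 counts in any library. Mmp1a, Mmp1b, Mmp7, Mmp8, Mmp20 and Mmp27 were at 0 in every library, and Mmp12 reached 1 count. The stromelysin Mmp3 had 0 to 1 counts under DMSO and 1 to 5 counts under torin1 in WT, and 0 counts in the 12 AMPK KO libraries. The collagenase Mmp13 had 0 to 4 counts under DMSO, 2 to 4 under MK-8722 and 17, 11, 14 and 4 under torin1 in WT, against 0 to 1 counts in AMPK KO. Neither passed the filter on low counts, and no test was made. Other members with too few reads were Mmp21 and Timp4, with at most 1 count, Adamts13, Adamts15 and Adamtsl2, with at most 4, and Adamts3, Adamts16, Adamts8 and Adamts19, with at most 10, 12, 14 and 0 counts. A count of 0 allows up to 3 counts in that library, counting error alone considered.

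Among the promoters that could be read, those of this cluster were the ones with AP-1 letters. RefSeq windows of GRCm38.p6 that end just before the annotated start were found for 36 of the 51 members in 39 windows of 250 bases, and those of 15 members, Mmp2 and Mmp9 among them, were not matched. The letters TGAGTCA, read on either strand, are bound by AP-1 factors in many genes and were found in 7 of the 39 windows, against 4.46% of all 32851 windows. All 7 belong to the chromosome 9 cluster and are those of Mmp1a, Mmp1b, Mmp3, Mmp7, Mmp10, Mmp12 and Mmp13. The letters TATAAA were in 10 of 39 windows, against 12.4%, and GGGCGG, known as the GC box, in 20 of 39, against 32.7%. The E box CACGTG was in 2 of 39, against 6.02%, and the longer TCACGTGA, which contains it and is bound by TFEB and its relatives, in none of the 39, against 0.785%. A match is a description of the letters, and its absence says only that they are not in this window.

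The windows of 3 stromelysin or collagenase genes are shown first because they carry both AP-1 letters and TATAAA. Those of Timp1, Adamtsl5 and Mmp14 follow because these genes had a called interaction of MK-8722 with genotype, which for Mmp14 was marginal, and their windows hold no annotated exon. Each is printed 5′ to 3′ on the strand of its gene, and capitals mark the AP-1 letters, the TATA letters or the GC box on either strand. The positions are chr9:7445572-7445821 for Mmp3, chr9:7502092-7502341 for Mmp10 and chr9:7272264-7272513 for Mmp13, all on the plus strand. They are chrX:20869916-20870165 for Timp1 (plus strand), chr10:80348449-80348698 for Adamtsl5 (minus strand) and chr14:54431348-54431597 for Mmp14 (plus strand).
Mmp3: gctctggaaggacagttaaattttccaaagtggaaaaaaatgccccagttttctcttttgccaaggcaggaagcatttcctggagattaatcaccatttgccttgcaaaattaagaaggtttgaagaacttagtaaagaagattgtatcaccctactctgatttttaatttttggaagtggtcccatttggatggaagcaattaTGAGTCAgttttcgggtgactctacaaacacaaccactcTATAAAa
Mmp10: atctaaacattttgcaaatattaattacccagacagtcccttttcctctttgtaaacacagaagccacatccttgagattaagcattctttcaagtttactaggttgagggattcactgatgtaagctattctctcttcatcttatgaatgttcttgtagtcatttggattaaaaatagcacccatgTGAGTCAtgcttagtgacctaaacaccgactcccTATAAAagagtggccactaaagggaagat
Mmp13: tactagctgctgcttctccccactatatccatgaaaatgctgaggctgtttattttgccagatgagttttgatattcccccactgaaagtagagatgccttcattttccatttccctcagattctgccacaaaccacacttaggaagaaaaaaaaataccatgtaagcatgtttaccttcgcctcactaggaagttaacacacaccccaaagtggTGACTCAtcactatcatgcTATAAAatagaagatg
Timp1: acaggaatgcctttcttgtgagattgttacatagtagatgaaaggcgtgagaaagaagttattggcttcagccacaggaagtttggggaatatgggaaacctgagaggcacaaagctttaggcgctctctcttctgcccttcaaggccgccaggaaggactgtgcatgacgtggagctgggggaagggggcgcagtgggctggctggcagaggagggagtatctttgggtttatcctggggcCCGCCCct
Adamtsl5: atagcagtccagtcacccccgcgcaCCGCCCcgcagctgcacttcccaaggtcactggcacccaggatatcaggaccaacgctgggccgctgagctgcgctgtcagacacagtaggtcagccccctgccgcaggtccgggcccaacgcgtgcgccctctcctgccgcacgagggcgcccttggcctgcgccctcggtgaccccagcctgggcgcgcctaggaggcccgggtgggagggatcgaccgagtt
Mmp14: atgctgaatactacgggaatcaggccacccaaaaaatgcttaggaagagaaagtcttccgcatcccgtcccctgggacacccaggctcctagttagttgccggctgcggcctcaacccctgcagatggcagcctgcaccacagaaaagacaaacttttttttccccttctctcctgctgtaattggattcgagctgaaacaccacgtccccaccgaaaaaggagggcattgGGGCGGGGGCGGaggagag
GC content was 37.2% to 40.4% in the first 3 windows and 54.4% to 70.8% in the other 3. Each of the first 3 holds 1 AP-1 and 1 TATAAA match, which follows from how they were chosen, and no GC box. The others hold 1 or 2 GC boxes and neither of the other letters. Windows of Mmp1a, Mmp1b and Mmp7 also carry both AP-1 letters and TATAAA and are not shown. Timp2 and Timp3, which also had a called interaction of MK-8722 with genotype, are not shown either.

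AMPK KO and WT cells differed under DMSO in most of the tested members, with changes in both directions. Genes were called where the adjusted p was below 0.05 and the level changed by at least 1.2-fold. By this rule 26 of 33 members (78.8%) were called, 12 higher and 14 lower in AMPK KO, against 56.9% of all 15828 genes tested (30.9% higher and 26% lower). With library size alone as scaling, the median of all genes was 0.15 in place of 0.02 and 6073 genes were higher and 2939 lower, in place of 4891 and 4116. The median size of the difference was 1 on the log2 scale over the members and 0.41 over all genes. Of the MMPs, 6 were higher and 3 lower. Of the ADAMTS proteases 5 were higher and 6 lower, of the ADAMTSL proteins 1 and 3, and of the TIMPs 0 and 2. Marker sums also differed, with osteoblast markers at 47.6 to 67.3 CPM in WT and 23.9 to 29.1 CPM in AMPK KO, epithelial markers at 1.12 to 2.05 and 3.04 to 4.55 CPM and endothelial markers at 0.878 to 1.28 and 1.57 to 2.1 CPM. Within these lists Runx2 was lower by a log2 fold change of -1.16, and Sp7 (3.21), Epcam (1.53), Cdh1 (1.02), Cdh5 (4.64) and Pecam1 (2.06) were higher. Sp7, Cdh5 and Pecam1 had at most 3 counts in each WT library under DMSO, so the sizes of their fold changes are uncertain. Chondrocyte sums overlapped, at 12.5 to 15.7 CPM in WT and 10.6 to 13 CPM in AMPK KO, but Sox9 was lower (-2.89) and Col2a1 higher (2.36). The part of these markers in the members' differences, like that of the lower fibroblast markers, was not tested.

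**Figure D1:**
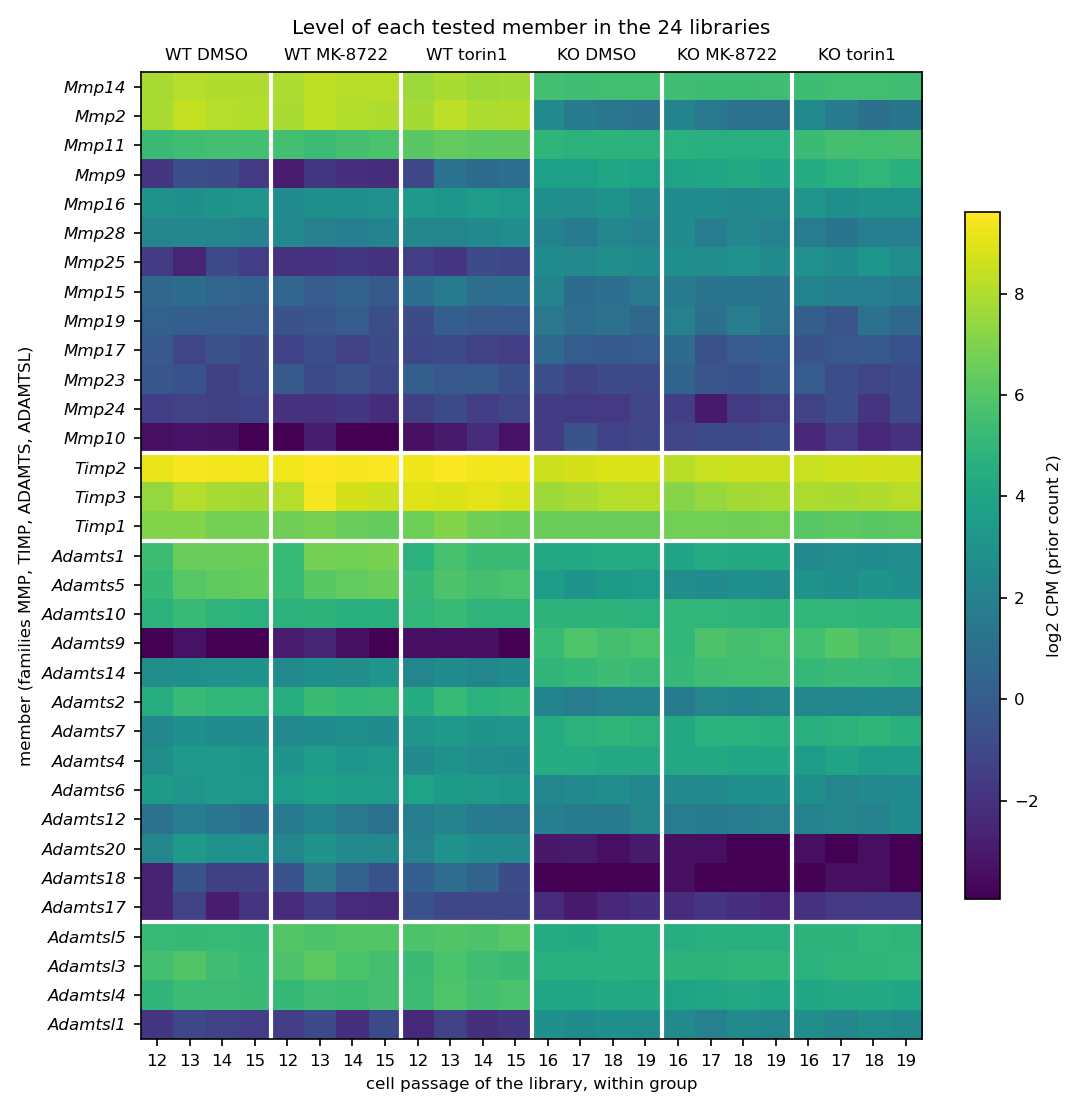
Log2 CPM (prior count 2) of the 33 tested members in the 24 libraries, in columns by group and, within a group, by passage, and in rows by family and falling mean level. Mmp2, Mmp14 and Adamts20 are bright in WT and dark in AMPK KO, while Mmp9, Adamts9 and Mmp25 show the reverse.

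The gelatinases, which cut denatured collagen and type IV collagen, went in opposite directions. Mmp2 (gelatinase A) was at 240, 325, 276 and 265 CPM in WT and at 5.52, 3.17, 2.52 and 2.22 CPM in AMPK KO, in the order of passages used for every list of 4 values here. Mmp9 (gelatinase B) was at 0.22, 0.549, 0.491 and 0.252 CPM in WT and at 12.8, 13.5, 17 and 14.9 CPM in AMPK KO. Neither pair of groups overlapped. Mmp2 was lower by a log2 fold change of -6.35 ± 0.24 (SE; adjusted p = 5.7e-17, edgeR quasi-likelihood test) and Mmp9 higher by 5.27 ± 0.30 (adjusted p = 1.6e-13). The canonical protein-coding transcript carried 90.3% of Mmp2 TPM in WT and 89.2% in AMPK KO, and 92.6% and 92.5% of Mmp9 TPM.

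Mmp14, the membrane-anchored protease that activates pro-MMP2, was also lower in AMPK KO. WT libraries held 230, 278, 257 and 250 CPM and AMPK KO libraries 46.5, 43.7, 45.9 and 46 CPM, with a log2 fold change of -2.48 ± 0.066 (adjusted p = 8.8e-20). The stromelysin-like Mmp11 was lower by 0.66 on the log2 scale, from 44.6 ± 3.56 to 28.2 ± 1.76 CPM. Of the membrane-type MMPs of lower level, 3 were higher in AMPK KO, with Mmp25 at 0.284 ± 0.142 and 6.08 ± 0.617 CPM (log2 fold change 4.39), Mmp15 at 1.40 ± 0.236 and 2.69 ± 1.14 CPM (0.95) and Mmp17 at 0.588 ± 0.191 and 1.08 ± 0.320 CPM. The other two, Mmp16 and Mmp24, differed by -0.22 (adjusted p = 0.048, under the fold minimum) and -0.18 (adjusted p = 0.65). Mmp19, a secreted MMP, was at 1 ± 0.1 and 2 ± 0.494 CPM, but its exons share 789 bases with Tmem198b on the other strand, which had a mean of 825 counts against 45.3 for Mmp19. The call for Mmp17 (adjusted p = 0.0087) was lost without AMPK KO DMSO replicate 3, at an adjusted p of 0.059, and with the offset for transcript length, at 0.095. Mmp10, a stromelysin at under 1 CPM, had 54 counts summed over the 4 AMPK KO libraries and 3 over the WT libraries, a ratio of 16.3 with an exact 95% counting interval of 5.28 to 81.4.

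**Figure D2:**
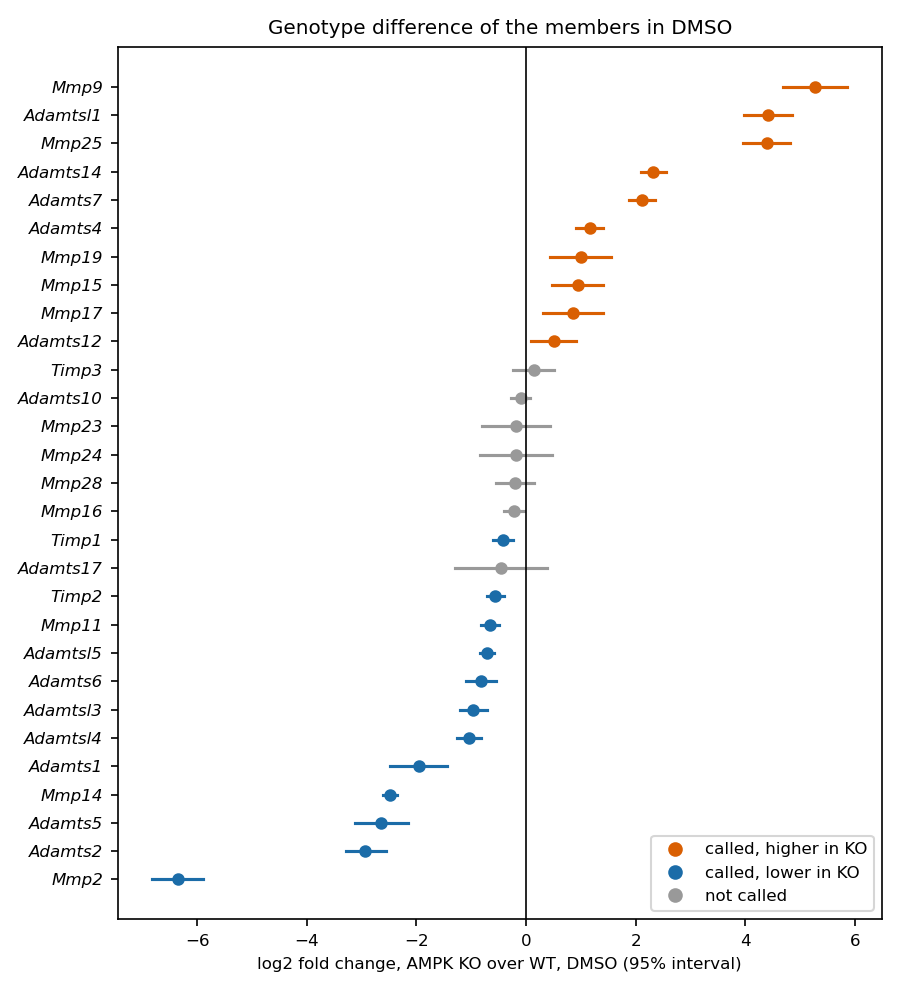
Log2 fold change of AMPK KO over WT under DMSO with 95% intervals from the edgeR fit, for 29 tested members in order of size. Mmp2 is farthest to the left at -6.35 and Mmp9 farthest to the right at 5.27, and Adamts9, Adamts18, Adamts20 and Mmp10 are left out because 1 of the groups had at most 3 counts in every library.

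Among the ADAMTS proteases, some members were practically present in only 1 genotype. Adamts9, a versican-cleaving protease on chromosome 6 (92772699 to 92943492), had 0, 1, 0 and 0 counts in WT and 36.3, 58.4, 49.9 and 52.7 CPM in AMPK KO. The ratio of summed counts was 5670, with an exact 95% counting interval of 1020 to 224000. Adamts20, its closest relative, was at 4.83, 10.1, 8 and 7.75 CPM in WT and had 1 or 2 counts in each AMPK KO library, which is 138-fold lower by summed counts, with an interval of 66.7 to 344. Adamts18 had 3 to 19 counts in WT and 0 in each of the 4 AMPK KO libraries, at least 3.79-fold lower against a floor of 3 counts per library. The exons of Adamts9 share 1381 bases with A730049H05Rik on the other strand, which had a mean of only 5.92 counts.

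The aggrecan- and versican-cleaving Adamts1 and Adamts5, which adjoin each other on chromosome 16 (85793827 to 85901828), were both lower in AMPK KO. Adamts1 was at 41.6, 91.1, 90.1 and 94.9 CPM in WT and at 19.2, 20.2, 21 and 21.1 CPM in AMPK KO (log2 fold change -1.96 ± 0.27), and Adamts5 fell from 66.9 ± 22 to 10.7 ± 1.69 CPM (-2.64 ± 0.24). Another aggrecanase, Adamts4, was higher in AMPK KO, at 20.2 ± 1.56 against 9.05 ± 1.64 CPM. The procollagen N-propeptidases were split as well. Adamts2 was at 22.2, 36.4, 32.4 and 31.1 CPM in WT and at 4.36, 3.37, 3.96 and 4.32 CPM in AMPK KO (log2 fold change -2.93 ± 0.19), whereas Adamts14 was at 6.56, 7.09, 7.44 and 8.03 CPM and at 30.6, 35.1, 42.3 and 37.1 CPM (2.32 ± 0.12). Adamts3, the remaining propeptidase of this group, had too few reads to be tested.

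Adamts7, which cleaves cartilage oligomeric matrix protein, had a mean of 6.12 ± 0.796 CPM in WT against 26.4 ± 3.71 CPM in AMPK KO (log2 fold change 2.11 ± 0.12). Adamts6 was lower by 0.82 on the log2 scale. Adamts12 was higher by 0.51 (adjusted p = 0.036), with overlap between the groups, and lost its call in 5 of 8 fits that left out 1 library, with an adjusted p of 0.16 without AMPK KO DMSO replicate 1. Of the ADAMTSL proteins, some of which bind fibrillin microfibrils, Adamtsl1 was at 0.22, 0.439, 0.351 and 0.288 CPM in WT and at 7.2, 6.31, 7.26 and 7.03 CPM in AMPK KO (log2 fold change 4.42 ± 0.22). Adamtsl3 and Adamtsl4 were lower in AMPK KO by log2 fold changes of -0.96 and -1.04.

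**Figure D3:**
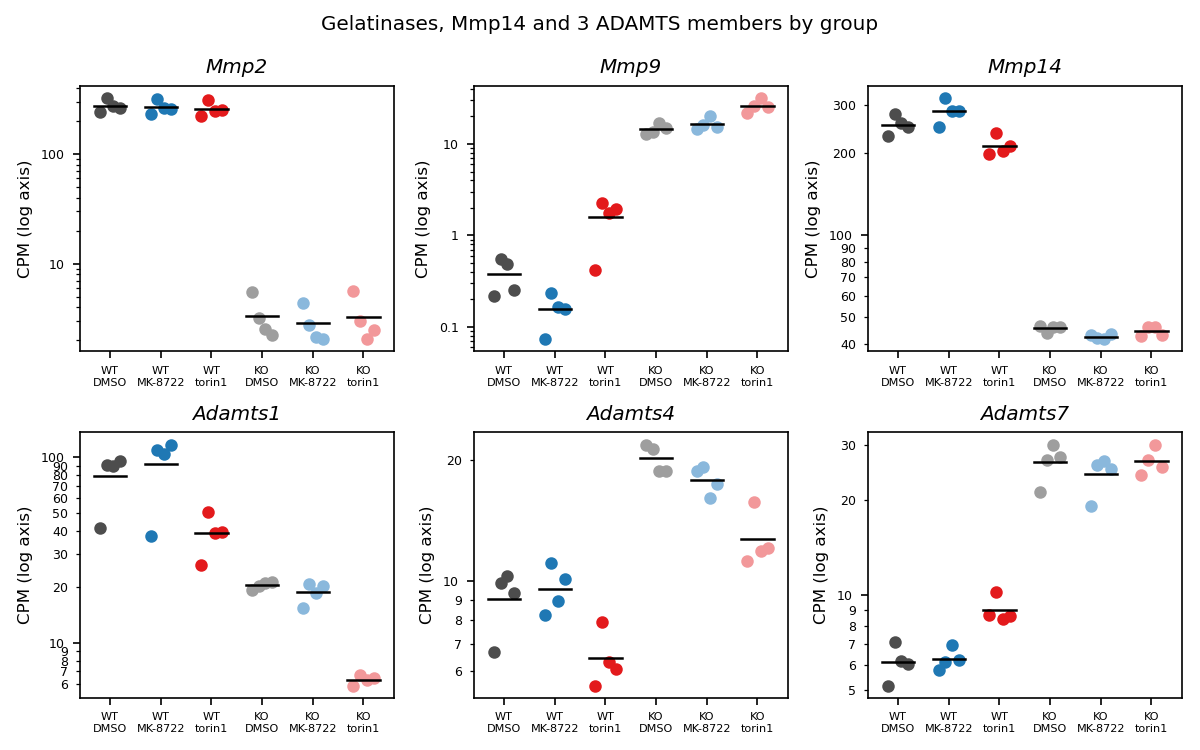
CPM on log axes of Mmp2, Mmp9, Mmp14, Adamts1, Adamts4 and Adamts7, with 1 point per library in order of passage and a line at the mean of each group of 4. Mmp9 rises under torin1 in both genotypes from very different levels, Adamts1 and Adamts4 fall under torin1, and the WT passage 12 library of Adamts1 lies at 41.6 CPM under DMSO and 37.7 CPM under MK-8722.

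Differences between genotypes were below 1 on the log2 scale for the inhibitors. Timp2 was at 564, 697, 653 and 647 CPM in WT and at 385, 427, 456 and 459 CPM in AMPK KO (log2 fold change -0.57 ± 0.080, adjusted p = 9.7e-07). Timp1 was at 138, 137, 111 and 111 CPM and at 95.5, 91.8, 93.2 and 89.7 CPM (-0.43 ± 0.094, adjusted p = 0.00031). For Timp3, the TIMP that stays bound to the matrix, the groups overlapped at 179 to 273 and 205 to 286 CPM, and the difference was 0.14 with a 95% interval from -0.23 to 0.51 (adjusted p = 0.52). Timp1 and Timp3 lie within synapsin genes on the opposite strand, and Timp3 shares 1733 exonic bases with Syn3. Mean counts were 283 for Syn1 against 3052 for Timp1 and 18.9 for Syn3 against 9361 for Timp3, and whether counting used strand is not given in the sources used here.

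Adamtsl5 needs transcript-level values. Its gene-level mean was 36.3 ± 1.74 CPM in WT against 22.1 ± 1.68 CPM in AMPK KO (log2 fold change -0.71 ± 0.064, adjusted p = 5.6e-10), but with an offset for transcript length the difference was -0.24 and fell short of the 1.2-fold minimum. Transcripts annotated as protein coding held 37.2% ± 3.80 of its TPM in WT and 64.9% ± 4.47 in AMPK KO under DMSO (exact two-sided permutation p = 0.0286, the smallest that 4 against 4 allow, 0.0476 adjusted over 15 tests chosen after the values were seen). Their summed level was 8.06 ± 0.986 TPM in WT and 12.8 ± 0.715 TPM in AMPK KO, so that the protein-coding transcripts were higher where the gene count was lower. Retained-intron and other noncoding transcripts were at 13.6 ± 1.08 and 6.96 ± 1.19 TPM.

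**Figure D4:**
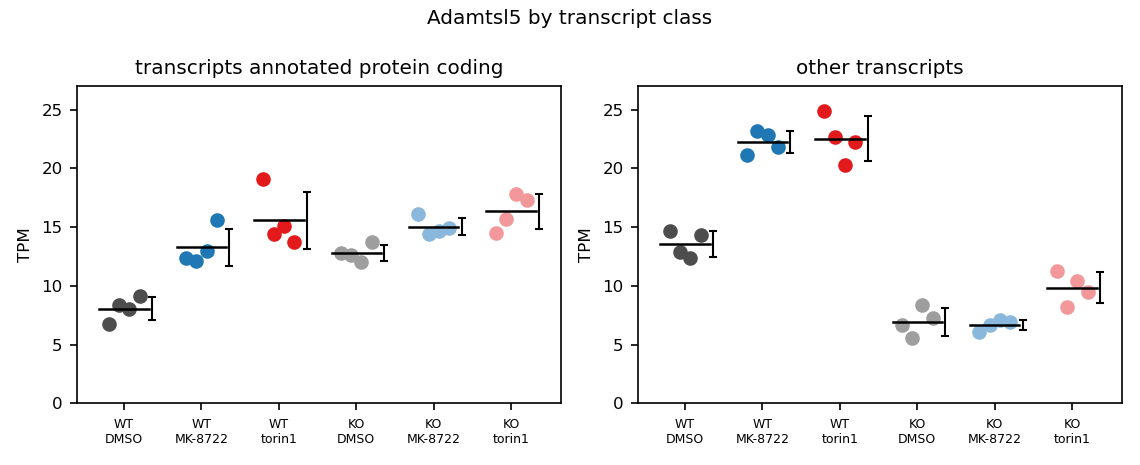
TPM of Adamtsl5 in each library, for transcripts annotated protein coding (left) and all other transcripts (right), with the mean and SD of each group of 4. Protein-coding TPM is lowest in WT DMSO at 8.06 and lies between 12.8 and 16.3 in the means of the other groups, while the other transcripts are at 13.6 to 22.5 TPM in WT and 6.69 to 9.85 TPM in AMPK KO.

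In the fit without a block, MK-8722 in WT cells called members at a share near that of all genes. No MMP met both thresholds in that fit. The drug called 4 of 33 (12.1%), 3 higher and 1 lower, against 15.7% of all genes (10% higher and 5.66% lower). The median change was 0.06 over the members and 0 over all genes. With passage as a block 8 members were called. This and the later block counts stand without the share of all genes called under the same block. Timp3 rose from 179, 273, 232 and 224 CPM to 270, 682, 426 and 380 CPM (log2 fold change 0.95 ± 0.19, adjusted p = 0.00048). At each passage the treated library was the higher one, but the groups overlap by the passage 12 library. Of the endothelial markers, Kdr was also higher in these libraries (2.88 on the log2 scale), which took the marker sum to 4.44 to 8.6 CPM against 0.878 to 1.28 CPM under DMSO, while Pecam1 (0.70, adjusted p = 0.46) and Cdh5 (0.06, adjusted p = 0.99) did not pass the test. The part of this in the change was not tested. Adamtsl5 rose from 37.6, 35.4, 37.8 and 34.2 CPM to 62.9, 56.9, 62.4 and 64 CPM, with no overlap (0.76 ± 0.062, adjusted p = 2.1e-09). Protein-coding and other Adamtsl5 transcripts rose together, to 13.3 ± 1.62 and 22.2 ± 0.954 TPM, and the protein-coding share of 37.3% ± 3.19 was close to that under DMSO.

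Timp1 went the other way in WT. It was at 100, 112, 92.1 and 84.7 CPM under MK-8722, lower by a log2 fold change of -0.35 ± 0.094 (adjusted p = 0.0065), with an overlap of the groups. Timp2 was at 637, 782, 718 and 737 CPM (0.17 ± 0.079, adjusted p = 0.13) and did not pass the test. Mmp14 was at 249, 318, 285 and 285 CPM (0.17 ± 0.061, adjusted p = 0.047), under the fold minimum. Mmp2 was at 268 ± 35.3 CPM, a difference of -0.05 with a 95% interval from -0.37 to 0.28. Mmp9 was at 0.158 ± 0.0658 CPM (-1.23 ± 0.66, adjusted p = 0.18), from at most 15 counts per library under DMSO. Adamts18, at under 1 CPM on average, was higher under MK-8722 (1.84 ± 0.52, adjusted p = 0.011), a call that was lost without WT MK-8722 replicate 1 (adjusted p = 0.077).

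**Figure D5:**
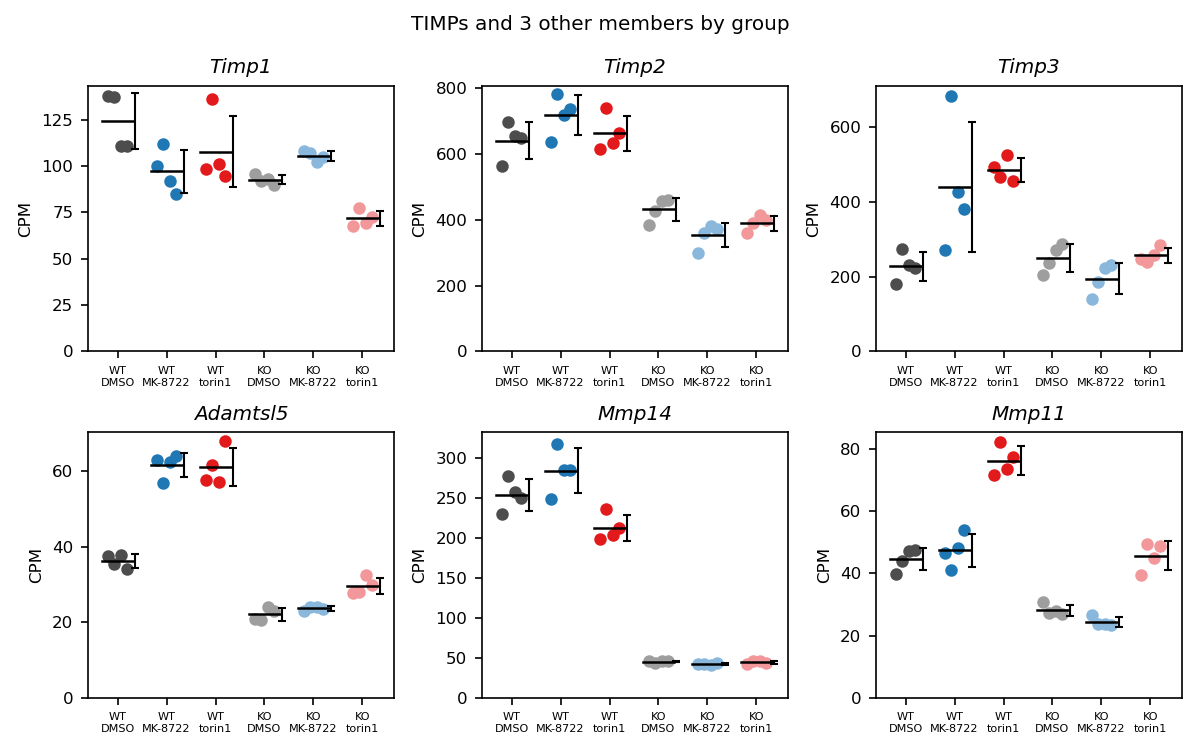
CPM of Timp1, Timp2, Timp3, Adamtsl5, Mmp14 and Mmp11 by group, with 1 point per library in order of passage, a line at the mean and a bar of 1 SD. Timp3 is raised by MK-8722 and by torin1 in WT and stays between 141 and 286 CPM in all AMPK KO libraries, and Adamtsl5 rises from a mean of 36.3 to 61.5 CPM with MK-8722 in WT.

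In AMPK KO cells MK-8722 called 1 of 33 members (3.03%), against 1.56% of all genes (0.866% higher and 0.695% lower, or 106 and 129 genes in place of 137 and 110 with library size alone). The count was 4 with passage as a block. The member called was Timp2, which was lower at 299, 359, 382 and 371 CPM (log2 fold change -0.29 ± 0.080, adjusted p = 0.049). The call is marginal, since it was lost in 7 of 8 fits that left out 1 library, with an adjusted p of 0.15 without AMPK KO DMSO replicate 1. Timp3 was at 141, 185, 222 and 231 CPM (-0.36 ± 0.19, adjusted p = 0.36), Timp1 at 108, 107, 102 and 105 CPM (0.19 ± 0.094, adjusted p = 0.32) and Adamtsl5 at 23.7 ± 0.583 CPM. Protein-coding Adamtsl5 transcripts were nevertheless higher, at 15 ± 0.746 TPM against 12.8 ± 0.715 TPM under DMSO (exact permutation p = 0.0286, 0.0476 adjusted over the 15 tests). Its other transcripts were at 6.69 ± 0.428 TPM against 6.96 ± 1.19 TPM (exact permutation p = 0.743). Mmp2, Mmp9 and Mmp14 differed by -0.24, 0.19 and -0.10 and did not pass the test.

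Tested as an interaction, whether MK-8722 acted differently in AMPK KO and WT, the fit called 5 of 33 members (15.2%), 1 with a positive and 4 with a negative value, against 12.8% of all genes (5.12% and 7.66%). With passage as a block it called 10. All 3 tested TIMPs were among the 5. Given as the change in AMPK KO minus that in WT, the difference was -1.31 ± 0.27 on the log2 scale for Timp3 (adjusted p = 0.0014) and -0.46 ± 0.11 for Timp2 (adjusted p = 0.0064). For Timp1, which fell in WT, it was 0.54 ± 0.13 (adjusted p = 0.0065). The other 2 members were Adamtsl5, by its gene counts (-0.67 ± 0.089, adjusted p = 1.3e-05), and Mmp14 (-0.27 ± 0.090, adjusted p = 0.044). An interaction was not tested for the protein-coding transcripts of Adamtsl5, which were higher under MK-8722 in both genotypes. The call for Mmp14 was lost in 13 of 16 fits that left out 1 library and under 8 of 14 other settings, with an adjusted p of 0.1 without WT MK-8722 replicate 1 and 0.098 without the passage 16 libraries. For Mmp2 and Mmp9 the interaction was -0.19 and 1.42 and did not pass the test.

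Torin1 in WT cells called 13 of 33 members (39.4%), 10 higher and 3 lower, against 47.6% of all genes (26.6% higher and 21.1% lower), with a median change of 0.24 over the members and 0.04 over all genes. With library size alone the median of all genes was 0.14, all genes split into 5174 higher and 2493 lower in place of 4204 and 3336, and members into 12 and 3. Markers moved in the same libraries. Of the 8 fibroblast markers, 4 were higher on the log2 scale, Pdgfra (2.75), Fn1 (0.84), Vim (0.52) and Pdgfrb (0.36). Col1a1 (-1.05) and Col1a2 (-0.85) were lower. Kdr (1.42), Cdh1 (0.92) and Epcam (0.72) were higher, and endothelial sums were 1.97 to 3.87 CPM against 0.878 to 1.28 CPM under DMSO. The part of these markers in the members' changes was not tested. The MMPs called, Mmp9, Mmp11, Mmp15 and Mmp16, were all higher. Mmp9 was at 0.416, 2.28, 1.74 and 1.96 CPM under torin1 (log2 fold change 2.08 ± 0.39, adjusted p = 7e-05). Only its passage 12 library lay within the range of DMSO. Mmp11 was at 71.6, 82.2, 73.4 and 77.4 CPM against 39.8, 43.8, 47 and 47.6 CPM under DMSO (0.77 ± 0.078, adjusted p = 7.9e-09), with no overlap.

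The membrane-type Mmp16 (10.0 ± 0.910 CPM under torin1, log2 fold change 0.34) and Mmp15 (2.17 ± 0.571 CPM, 0.63) rose by less. The call for Mmp15 (adjusted p = 0.027) was lost in 4 of 8 fits without 1 library, with an adjusted p of 0.15 without WT torin1 replicate 2, and at 0.051 without the passage 12 libraries. Mmp16 missed the threshold with the length offset, at an adjusted p of 0.052. Mmp14 was at 213 ± 16.6 CPM, a difference of -0.25 ± 0.061 (adjusted p = 0.00099) that is below the 1.2-fold minimum. Mmp2 was at 258 ± 37.6 CPM (-0.10, 95% interval -0.43 to 0.23).

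Timp3 rose under torin1 in WT to 492, 467, 526 and 454 CPM, all above every DMSO library (log2 fold change 1.10 ± 0.19, adjusted p = 2.6e-05). Timp1 was at 98.6, 136, 101 and 94.8 CPM (-0.21, adjusted p = 0.059) and Timp2 at 616, 738, 632 and 662 CPM (0.05, adjusted p = 0.62). Adamtsl5 rose to 57.8, 61.7, 57.2 and 67.9 CPM (0.75 ± 0.061, adjusted p = 2.4e-10), a level beside the 61.5 ± 3.18 CPM of MK-8722. The drugs share their DMSO libraries, so these changes are not independent of each other. Adamtsl4 rose to 49.7 ± 7.71 CPM (0.39), and Adamts7 to 8.67, 10.2, 8.39 and 8.59 CPM (0.56 ± 0.13, adjusted p = 0.00048).

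Adamts1 fell under torin1 in WT to 26.3, 50.4, 39.2 and 39.6 CPM (log2 fold change -1.03 ± 0.25, adjusted p = 0.0012). The groups overlapped through the passage 12 library under DMSO. Adamts4 fell to 5.5, 7.93, 6.32 and 6.05 CPM (-0.48 ± 0.14, adjusted p = 0.0038), also with overlap. Adamts14 was at 4.8, 6.16, 4.85 and 6.27 CPM (-0.40 ± 0.13, adjusted p = 0.011), a call lost without WT torin1 replicate 3 (adjusted p = 0.064). Adamts17 and Adamts18, both at under 1 CPM on average, rose by 1.43 and 1.70, and neither kept its call with the length offset (adjusted p = 0.13 and 0.16).

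In AMPK KO, torin1 called 8 of 33 members (24.2%), 4 higher and 4 lower, against 43.5% of all genes (25.9% higher and 17.6% lower). Library size alone gave 6 and 4, and passage as a block 13 calls. Epithelial marker sums were 5.35 to 6.45 CPM against 3.04 to 4.55 CPM under DMSO and endothelial sums 2.25 to 3.07 against 1.57 to 2.1 CPM. Of the 8 fibroblast markers, 4 were higher on the log2 scale, Pdgfra (1.13), Fn1 (0.68), Vim (0.49) and Pdgfrb (0.32). Col1a1 (-1.22), Col1a2 (-1.13) and Col3a1 (-1.15) were lower. Fibroblast sums were 6270 to 6830 CPM against 4800 to 5370 CPM under DMSO, and the part of these markers was not tested. Mmp9 rose from 12.8, 13.5, 17 and 14.9 CPM to 21.9, 26.3, 31.8 and 25.2 CPM (log2 fold change 0.85 ± 0.18, adjusted p = 0.00034). Mmp11 rose from 30.7, 27.2, 28 and 26.8 CPM to 39.3, 49.3, 44.9 and 48.9 CPM (0.70 ± 0.080, adjusted p = 8.7e-08), and Adamtsl5 from 21, 20.5, 24 and 23 CPM to 27.9, 28, 32.5 and 29.8 CPM (0.42 ± 0.064, adjusted p = 5.8e-06). In each of these the groups did not overlap. The call for Adamts17 (0.93, adjusted p = 0.049), at under 1 CPM, was lost in 6 of 8 fits without 1 library, with an adjusted p of 0.16 without AMPK KO DMSO replicate 2.

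Adamts1 fell to 5.84, 6.69, 6.31 and 6.41 CPM under torin1 in AMPK KO (log2 fold change -1.69 ± 0.30, adjusted p = 4.8e-05) and Adamts4 from 21.8, 21.2, 18.8 and 18.8 CPM to 11.2, 15.7, 11.9 and 12.1 CPM (-0.66 ± 0.12, adjusted p = 6.8e-05). Both aggrecanases were separated from DMSO in all 4 libraries, and so was Timp1, which fell to 67.9, 77.1, 69.5 and 72.4 CPM (-0.37 ± 0.095, adjusted p = 0.002). Mmp10 was lower by 1.33 from at most 20 counts per library. Timp3 was at 247, 238, 258 and 285 CPM, a difference of 0.04 with a 95% interval from -0.33 to 0.41. Timp2, Mmp2 and Mmp14 differed by -0.15, -0.04 and -0.04 and did not pass the test.

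The genotypes differed in their response to torin1 in 3 of 33 members (9.09%), against 7.07% of all genes (4.15% with a positive and 2.92% with a negative value), and each of the 3 differences was negative. With passage as a block 10 were called. All genes split into 657 positive and 462 negative, but into 418 and 576 with library size alone and 517 and 549 with DESeq2 size factors, while the members' split was 0 and 3 under each. These were Timp3 (-1.06 ± 0.27, adjusted p = 0.014), Adamtsl5 (-0.34 ± 0.088, adjusted p = 0.018) and Adamts7 (-0.55 ± 0.16, adjusted p = 0.035). The call for Adamts7, which was at 26.6 ± 2.54 CPM under torin1 and 26.4 ± 3.71 CPM under DMSO in AMPK KO, was lost in 7 of 16 fits without 1 library, with an adjusted p of 0.087 without WT DMSO replicate 4. Mmp9 had an interaction of -1.23 ± 0.45 (adjusted p = 0.083) and Mmp14 one of 0.22 (adjusted p = 0.13), and neither passed the test. Timp1, Timp2 and Mmp2 had interactions of -0.16, -0.20 and 0.05.

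Members that were tested and called in none of the comparisons were Adamts10, at 24.1 to 38.1 CPM in all libraries, Mmp28, at 2.49 to 6.34 CPM, Mmp23, at 0.316 to 1.26 CPM, and Mmp24, at 0.0646 to 0.54 CPM. Adamts10, which is needed for normal fibrillin microfibrils, was thus the member of highest level without a call. The exons of Mmp24 share 637 bases with BC029722 on the other strand, which had a mean of 1110 counts against 9.38 for Mmp24, and its value is uncertain. Adamts7 shares 122 exonic bases with Tbc1d2b, which had a mean of 1070 counts.

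Libraries of some passages stood at an end of their groups for many members. Whether passage itself or a shared culture or day lay behind this was not tested. In WT, the passage 12 library was the lowest of its group in all 3 groups for 11 of 33 members (Adamts1, Adamts2, Adamts4, Adamts5, Adamts14, Adamts20, Adamtsl4, Mmp2, Mmp9, Mmp14 and Timp2), against 7.87% of all genes. It was the highest in all 3 for 1 member, Mmp23, against 10.1%. The passage 13 library was the highest in all 3 WT groups for 10 members, against 6.47%, and the lowest for 0, against 5.8%. Of the 10, Mmp2, Mmp9, Mmp14, Timp2, Adamts2 and Adamts20 were the lowest at passage 12. In AMPK KO, the passage 16 library was the lowest in all 3 groups for 6 members, against 8.83%, and the highest for 3, Mmp2, Mmp15 and Mmp23, against 7.56%. Mmp2 in AMPK KO was at 5.52, 4.42 and 5.62 CPM at passage 16 and at 2.04 to 3.17 CPM at later passages. The libraries of passages 14, 15, 17 and 19 were lowest or highest in all 3 groups for 0 to 3 members in each direction. The share of all genes there was 0.941% to 7.82%. At passage 18 the library was the lowest for 0 members and the highest for 5, against 2.69% and 5.03%. Without the passage 12 libraries, 26 members were called between genotypes, 14 under torin1 and 5 under MK-8722 in WT, 7 in the MK-8722 interaction and 5 in the torin1 interaction. Without the passage 16 libraries the counts were 26 between genotypes, 8 under torin1 and 0 under MK-8722 in AMPK KO, 4 in the MK-8722 interaction and 3 in the torin1 interaction. The counts of these reduced fits stand without the share of all genes called in the same fits. They are not a result about the members.

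Regulators of pericellular proteolysis, such as the plasminogen activators and their inhibitors, were taken from a list of 18 genes, 15 of them tested. Between genotypes 5 were higher and 5 lower in AMPK KO (66.7% called, against 56.9% of all genes), with a median of -0.21 against 0.02 over all genes. The urokinase gene Plau was lower by a log2 fold change of -2.42 ± 0.11 and its inhibitor Serpinb2 by -3.48 ± 0.42, while the tissue activator Plat was higher by 1.91 ± 0.18 and the proteoglycan Spock2 by 2.25 ± 0.21. MK-8722 in WT called 3 (2 higher, 1 lower, or 20% against 15.7% of all genes), among them the urokinase receptor Plaur, higher by 0.66 ± 0.14, and Plat, with a change of -0.84 ± 0.19. In AMPK KO it called 0 of 15 with edgeR, of which 2 had an unadjusted p under 0.05. Torin1 called 11 in WT (5 higher, 6 lower) and 8 in AMPK KO (4 and 4), which is 73.3% and 53.3%, against 47.6% and 43.5% of all genes. Reck, a membrane-anchored inhibitor of MMPs, rose by 0.95 ± 0.13 and 0.90 ± 0.13, and Furin, which activates membrane-type MMPs, fell by -0.47 ± 0.074 and -0.30 ± 0.073.

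Other metalloproteinases and enhancers were tested for 14 of 19 listed genes. In AMPK KO 4 were higher and 5 lower than in WT under DMSO (64.3% called, against 56.9% of all genes). Adam19 was lower by -5.50 ± 0.11 and the procollagen C-proteinase Tll1 by -4.73 ± 0.25, and Adam22 was higher by 2.29 ± 0.20. Adam9 rose under MK-8722 in WT (0.54 ± 0.047), and its response was smaller in AMPK KO by -0.31 ± 0.066. Pcolce, an enhancer of procollagen C-proteinase, fell under torin1 by -0.49 ± 0.093 in WT and -0.62 ± 0.093 in AMPK KO.

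Of 23 listed matrix substrates other than collagens, 18 were tested, and in AMPK KO 4 were higher and 11 lower than in WT under DMSO (83.3% called, against 56.9% of all genes), with a median of -1.17. The proteoglycan Bgn was lower by -6.72 ± 0.31 and Fbn2 by -4.14 ± 0.67, and Thbs2 was higher by 4.19 ± 0.20. Vcan, the versican substrate of several ADAMTS proteases, was lower by -1.29 ± 0.11. MK-8722 called 0 of 18 in either genotype with edgeR, and 3 had an unadjusted p under 0.05 in each. Torin1 called 7 in WT (6 higher, 38.9% against 47.6% of all genes) and 11 in AMPK KO (10 higher, 61.1% against 43.5%), with Fn1, also among the fibroblast markers, at 0.84 ± 0.082 and 0.68 ± 0.081, Ltbp2 at 1 ± 0.23 and 1.01 ± 0.25 and Vcan at 0.52 ± 0.11 and 0.63 ± 0.11.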

How the data were processed

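Poly(A) RNA of the 24 libraries was sequenced by the study and quantified by the authors with STAR and Salmon on GRCm38, with the unique molecular identifier options of their workflow. Gene-level estimated counts were deposited by the authors without normalization, and for each library estimated counts and TPM per transcript, of which TPM is scaled for transcript length and depth. Replicates were not pooled. Whether counting used strand is not given in the sources used here.

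From these, estimated gene counts were rounded to whole numbers, filtered with filterByExpr and scaled by TMM, and 1 model of 6 group means was fitted with edgeR 4.0.16 (R 4.3.3). The quasi-likelihood test gave p values for 7 comparisons, adjusted by Benjamini-Hochberg over 15828 genes. Calls needed adjusted p values below 0.05 with changes of 1.2-fold or more. Tested genes held 99.96% of counts. CPM uses TMM library sizes. Log2 CPM was plotted with a prior count of 2. TPM of a gene is the sum over its transcripts, and differences in the share of Adamtsl5 transcripts were tested with exact permutation tests (SciPy 1.17.1). Intervals for ratios of summed counts are exact and cover counting error only, with a floor of 3 counts for a count of 0. Promoter windows were taken from RefSeq and positions from GENCODE.

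The deposited totals of 26900240 to 34192685 estimated counts limit genes under about 1 CPM, and the common biological coefficient of variation was 0.079. No 2 libraries of a group looked like 1 library deposited more than once. On simulated counts for MK-8722 in WT over 15339 genes, the procedure recovered 88% of 100 genes changed by 0.6 on the log2 scale and 98% of 100 changed by 1, with 9 false among 195 calls. The changed genes were drawn from those above a minimum expected count, and all genes had the same spread and no passage effect. Recovery of members with low counts or a wider spread was therefore not measured. Members and lists were chosen with earlier results of these data known. Named were Mmp2, Mmp3, Mmp9, Mmp13, Mmp14 and Timp1 to Timp3 throughout, called members with a mean of at least 1 CPM, members never called, with their range, and members not tested, with their highest count. Called members under 1 CPM, and the genes named from the lists and the promoter set, were added after their values were seen. Alternatives tried were library size alone or DESeq2 size factors as scaling, other filters, a transcript length offset, blocks, other thresholds, DESeq2 1.42.0, counts not rounded, only the libraries compared, and leaving out single libraries. Leaving out the libraries of passage 12 or 16 was added after the data were seen.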

Additional observations from a re-analysis of the deposited data

Results flagged for a closer look

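Single libraries stood apart from the other 3 of their group by Dixon's ratio in 5 of 90 groups checked over 16 genes, and chance flags about 1 in 20 groups. Adamts1 was at 41.6 CPM in WT DMSO replicate 4 against 90.1 to 94.9 CPM in the others, and at 37.7 CPM in WT MK-8722 replicate 2 against 104 to 117 CPM, both of passage 12. Adamts7 was at 10.2 CPM in WT torin1 replicate 2 against 8.39 to 8.67 CPM, and Timp1 was at 136 CPM in the same library, of passage 13, against 94.8 to 101 CPM. Mmp11 was at 26.6 CPM in AMPK KO MK-8722 replicate 2, of passage 16, against 23.4 to 23.8 CPM.

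The response to a drug differed between genotypes, by the interaction term of the edgeR fit, in several members. As the change in AMPK KO minus that in WT, on the log2 scale, the difference for MK-8722 was -1.31 for Timp3, -0.67 for Adamtsl5, -0.46 for Timp2, -0.27 for Mmp14 and 0.54 for Timp1. For torin1 it was -1.06 for Timp3, -0.55 for Adamts7 and -0.34 for Adamtsl5.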

How the results depend on the processing

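The number of members called between genotypes, 26, stayed within 1.5 times under each alternative run, and leaving out 1 library gave 25 to 28. For MK-8722 in AMPK KO (1 call, Timp2) the count was 0 with DESeq2 size factors, with the length offset, with the replicate number as a block, at a fold of at least 1.5 and without the passage 16 libraries, and 2 with DESeq2 or with only the libraries compared. Leaving out 1 library gave 0 to 1. A fold of at least 1.5 left 2 calls in the MK-8722 interaction, 1 in the torin1 interaction and 8 of 13 for torin1 in WT. Without the passage 12 libraries the torin1 interaction called 5. Leaving out 1 library gave 3 to 5 for MK-8722 in WT, 4 to 6 for its interaction, 12 to 17 and 7 to 11 for torin1 in WT and AMPK KO, and 2 to 6 for the torin1 interaction, with 6 without WT torin1 replicate 4.

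Replicate numbers do not pair the libraries. Correlations of same-numbered libraries between groups ran from -0.2 to 0.25 with a median of 0.02, and 0 of 24 libraries correlated best with their own number in every other group. For passage within genotype they ran from -0.01 to 0.37 with a median of 0.13, and 17 of 24 did so. The labels give each group 1 library of each passage of its genotype, but do not say that libraries of the same passage share a culture or day. A passage block called 8 members for MK-8722 in WT, 4 in AMPK KO and 10 in its interaction, and 13 for torin1 in AMPK KO and 10 in its interaction. The cause of these changes in the counts was not tested. The block counts, here and in the Results, stand without the share of all genes called under the same block. The same holds for other member counts given without that share, such as those without 1 library or without a passage. None of these counts is therefore a result about the members.

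With library size alone the median of all genes moved from 0.06 to 0.12 for torin1 in AMPK KO, and calls split into 4764 higher and 2237 lower in place of 4096 and 2783. Of 60 calls of named members, 51 were kept on leaving out any 1 library compared. No named value that was called in the main fit or in the alternative changed direction between them. Values called in neither were not checked for this. Depth limits what can be said of members under 1 CPM, such as Adamts17, Adamts18 and Mmp10.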
